A study of Mus musculus with 9 samples.

Results

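The genes described here are 10 mouse genes of the antioxidant defence, Nqo1, Gclc, Gclm, Txnrd1, Srxn1, Gpx1, Gpx2, Sod1, Cat and Hmox1. They were taken from the expression table by their Ensembl identifiers, under a rule that names the genes and sets no threshold, and are 10 of the 31685 genes listed. The samples were jejunal RNA of 9 wild-type male C57BL/6J mice aged 6 to 8 weeks, collected on day 3. The control group was 3 mice without treatment. The TAI group was 3 mice given a single X-ray dose of 12 Gy to the abdomen (total abdominal irradiation, TAI) at 75 cGy/min, followed by injections of PBS. The TAI/IVIg group was 3 mice given the same dose and 500 mg/kg of intravenous immunoglobulin (IVIg), pooled donor antibody, within 1 h of TAI and again every 3 days. Because the control mice were neither irradiated nor injected, radiation and injection cannot be told apart in comparisons with them. Mice were anesthetized with pentobarbital sodium for the irradiation, and the methods do not say whether control mice were. Anesthesia may therefore not be separable from radiation either. Oxidative stress was among the readouts of the study, and the question here is how the RNA of these enzymes stood after TAI and after TAI with IVIg.

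NRF2, the product of Nfe2l2, is a transcription factor that binds antioxidant response elements together with small MAF proteins. In unstressed cells KEAP1 holds it on a CUL3 and RBX1 ubiquitin ligase and it is degraded, and oxidants or electrophiles release it. Its known targets include the quinone reductase Nqo1, the glutathione-making enzyme Gclc with its modifier Gclm, the thioredoxin reductase Txnrd1, the sulfiredoxin Srxn1, the glutathione peroxidase Gpx2 and the heme oxygenase Hmox1. Gpx1, Sod1 and Cat encode the abundant enzymes that remove peroxides and superoxide and depend less on NRF2. In the intestine the epithelium meets oxidants from food, microbes and its own mitochondria, and ionizing radiation adds radicals made from water.

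Expression was given as FPKM, the reads of a gene divided by its length and by the total reads of the library, so levels of different genes can be set side by side. The libraries held 16284530 to 18244736 reads (median 17312589). A gene counted as tested where it reached an FPKM of 1 in at least 3 mice, which left 13056 genes, and all 10 antioxidant genes were among them. Differences are given on the log2(FPKM + 1) scale from a limma fit of all 9 mice, with their standard error (SE), and p-values carry a Benjamini-Hochberg adjustment over all 13056 genes. A gene was called at an adjusted p under 0.05. The median difference of all tested genes was not at 0. It lay at -0.23 in TAI against control, at -0.13 in TAI/IVIg against TAI and at -0.39 in TAI/IVIg against control. The differences of the antioxidant genes are therefore also given with the library medians set equal, a scaling that moved those medians to 0.05, 0.08 and 0.10.

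All 10 genes were found in the GENCODE M21 annotation of GRCm38, and the length behind the FPKM values equals the summed exons for 9 of them (for Gpx2 it is 3167 of 3222 exon bases). Nqo1 (ENSMUSG00000003849) lies at chr8:107388225-107403206, Cat (ENSMUSG00000027187) at chr2:103453849-103485160 and Gpx2 (ENSMUSG00000042808) at chr12:76792333-76795554, these 3 on the minus strand. On the plus strand are Gclc (ENSMUSG00000032350) at chr9:77754535-77794485, Gclm (ENSMUSG00000028124) at chr3:122245557-122270732, Txnrd1 (ENSMUSG00000020250) at chr10:82833951-82897712, Srxn1 (ENSMUSG00000032802) at chr2:152105516-152111376, Gpx1 (ENSMUSG00000063856) at chr9:108338903-108340343, Sod1 (ENSMUSG00000022982) at chr16:90220754-90226329 and Hmox1 (ENSMUSG00000005413) at chr8:75093621-75100589. Gclm shares 296 exon bases with Gm17494 on the other strand and 244 with Gm6061 on its own strand, out of 6291, so a small part of its reads may belong to them. The other 9 genes share no exon base with another gene.

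After TAI most of these genes stood lower than in control mice, with higher means in Cat, Gclm and Hmox1. Nqo1 was 5.73-fold lower in mean FPKM, Gpx1 2.50-fold lower, Gclc 2.04-fold, Srxn1 1.99-fold, Sod1 1.79-fold and Txnrd1 1.62-fold lower. Cat was 3.27-fold higher. Of the 10 genes, 6 were called lower, where 26.1% of all tested genes were called lower, and 1 was called higher, where 8.81% of all tested genes were. Gclm, Gpx2 and Hmox1 were not called. With the library medians set equal, 2 of the 10 were called lower (Nqo1 and Gpx1) and 2 higher (Cat and Gclm). Over all tested genes the same scaling moved the calls from 3411 lower and 1150 higher to 1823 lower (14.0%) and 2159 higher (16.5%).

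**Figure D1:**
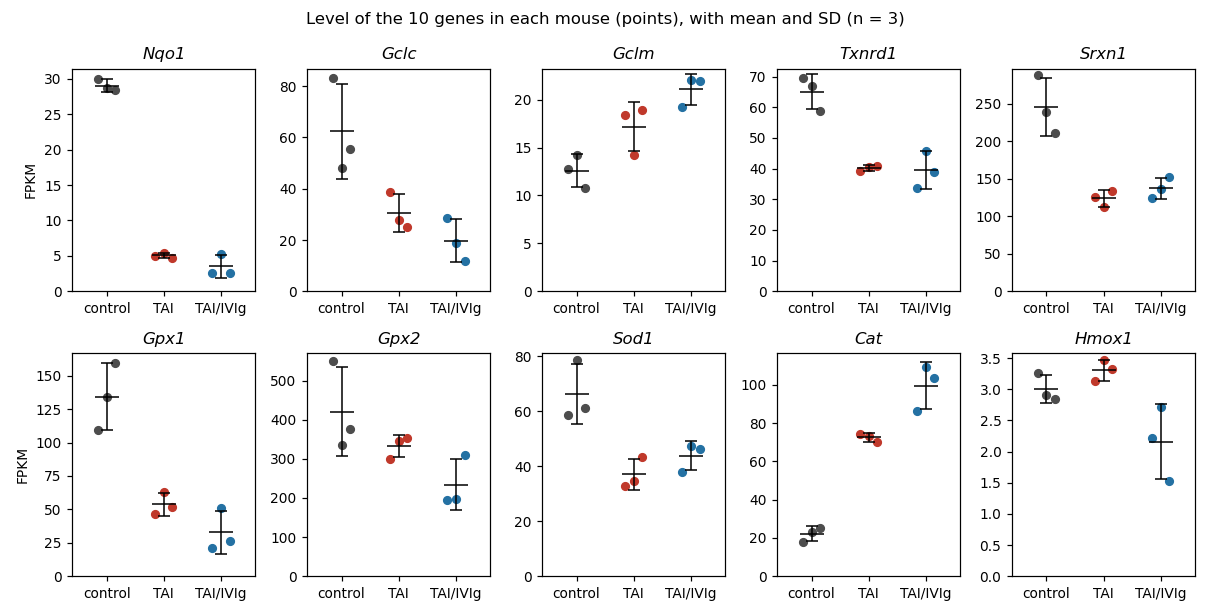
FPKM of each of the 10 genes (vertical axes, linear and starting at 0) in the 3 control, 3 TAI and 3 TAI/IVIg mice. Points are mice and bars are the mean and SD. Nqo1 lies at 28.4 or above in every control mouse and at 5.46 or below in every irradiated mouse, and Cat lies at 25.4 or below in control mice and at 70.0 or above in irradiated mice.

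Nqo1 reduces quinones with electrons from NADH or NADPH and is the usual readout of NRF2. It stood at 30.0, 28.7 and 28.4 FPKM in control mice 1, 2 and 3, at 5.00, 5.46 and 4.76 in the TAI mice and at 2.61, 5.31 and 2.57 in the TAI/IVIg mice. These values rest on 763 to 811 reads per control mouse, 133 to 138 per TAI mouse and 67 to 140 per TAI/IVIg mouse. All irradiated mice lay far below all control mice, and TAI/IVIg mouse 2 lay among the TAI mice while the other two lay below them. The mean fell from 29.0 ± 0.884 (SD, n = 3) in control to 5.07 ± 0.352 (n = 3) in TAI, a log2 difference of -2.31 (SE 0.21, limma adjusted p = 0.00035), or -2.02 with the library medians set equal. In TAI/IVIg the mean was 3.50 ± 1.57 (n = 3), -2.79 from control (SE 0.21, limma adjusted p = 0.000122). Nqo1 was past the threshold in both comparisons with control under all 20 alternative settings tried.

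Cat encodes catalase, the peroxisomal enzyme that splits hydrogen peroxide into water and oxygen. It stood at 17.9, 23.3 and 25.4 FPKM in the control mice, at 74.4, 73.3 and 70.0 in the TAI mice and at 86.2, 109 and 104 in the TAI/IVIg mice. The 3 groups did not overlap, and each TAI/IVIg mouse lay above each TAI mouse. The mean rose from 22.2 ± 3.85 in control to 72.5 ± 2.30 in TAI, by 1.68 on the log2 scale (SE 0.15, limma adjusted p = 0.000362), or by 1.97 with the medians set equal. TAI/IVIg, at 99.7 ± 12.1, was 2.13 above control (SE 0.15, limma adjusted p = 0.000102). Both calls held under all 20 alternative settings. In the same mice the 10 villus enterocyte markers fixed as a list (such as Alpi, Fabp2 and Apoa1, none of them at 0 in any mouse) summed to 12282 to 19723 FPKM in control, 29116 to 48556 in TAI and 43877 to 47005 in TAI/IVIg. Of these markers, 6 of 10 were called higher and 0 lower in TAI against control, where 8.81% and 26.1% of all tested genes were. Fabp2 and Apoa1 made up most of the sum. The sucrase-isomaltase gene Sis stood the other way, at 375, 510 and 257 FPKM in the control and 189, 196 and 129 in the TAI mice, with an unadjusted p under 0.05 (limma adjusted p = 0.0631). The part of these cells in the level of Cat was not tested. In bulk RNA a change in the share of a cell type and a change of RNA per cell cannot be told apart.

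Nqo1 and Cat moved furthest and in opposite directions, so the bases before their start sites are shown with those of Srxn1, taken from the RefSeq annotation of GRCm38.p6. Windows of 300 bases (250 before a start site and 50 after) were held for 8 of the 10 genes, not for Gclc and Hmox1. They were searched on both strands for the core of the antioxidant response element, TGACNNNGC, and for TGAGTCA, the AP-1 type site that such elements often contain. The 250 bases before the start are printed 5′ to 3′ on the gene's strand, and capitals mark matches to TGAGTCA.
Nqo1, chr8:107403206-107403455, minus strand: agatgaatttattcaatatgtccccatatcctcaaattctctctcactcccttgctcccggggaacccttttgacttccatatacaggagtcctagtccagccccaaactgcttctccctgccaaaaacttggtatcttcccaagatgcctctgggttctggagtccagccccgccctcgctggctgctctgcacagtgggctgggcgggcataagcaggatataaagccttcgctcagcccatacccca
Cat, chr2:103485154-103485403, minus strand: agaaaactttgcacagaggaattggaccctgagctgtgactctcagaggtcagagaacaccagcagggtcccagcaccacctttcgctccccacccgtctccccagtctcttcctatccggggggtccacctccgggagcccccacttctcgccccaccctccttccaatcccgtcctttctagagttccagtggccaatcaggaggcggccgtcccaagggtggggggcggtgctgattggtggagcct
Srxn1, chr2:152105274-152105523, plus strand: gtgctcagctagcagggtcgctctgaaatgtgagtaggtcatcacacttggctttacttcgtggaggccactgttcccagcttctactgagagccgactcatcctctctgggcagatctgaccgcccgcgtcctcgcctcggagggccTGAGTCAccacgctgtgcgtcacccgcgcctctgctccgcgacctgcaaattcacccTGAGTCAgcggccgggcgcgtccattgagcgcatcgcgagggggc
The windows of Nqo1 and Cat held neither set of letters. Srxn1 was the only one of the 8 genes with TGAGTCA, at 102 and 45 bases before the start, where 5.2% of all 32851 windows hold it. The TGAGTCA at 45 bases is followed by GC. The core was searched only with TGAC at its beginning, so TGAG followed by the same spacing and GC was not counted as a core. Srxn1 also had the core as searched on the other strand, GCTAGGTCA, beginning at base 29 after the start. These are matches of letters in a short window and say nothing of binding.

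The core was found in the windows of 4 of the 8 genes, Gclm, Txnrd1, Sod1 and Srxn1, and 12.4% of all windows hold it (14% of 27025 genes have it in at least 1 window). In Gclm, Txnrd1 and Sod1 it lay before the start, by 134, 92 and 56 bases, each time on the other strand, so that it reads GCNNNGTCA here. The 25 bases on either side are shown because the match of these 3 genes lies before the start, and capitals mark the match. Txnrd1 has 3 start sites in RefSeq, and the match lies before the second of them.
Gclm, chr3:122245398-122245456, plus strand: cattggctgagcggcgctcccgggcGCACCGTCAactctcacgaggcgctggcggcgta
Txnrd1, chr10:82859089-82859147, plus strand: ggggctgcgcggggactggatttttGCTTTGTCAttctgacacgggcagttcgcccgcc
Sod1, chr16:90220681-90220739, plus strand: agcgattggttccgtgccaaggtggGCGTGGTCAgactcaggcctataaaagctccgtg
The 2 motifs did not overlap in any of these windows. Of the 4 genes with a match, Txnrd1, Sod1 and Srxn1 were called lower after TAI and Gclm was not called. Of the genes with a window and no match, Nqo1 and Gpx1 were called lower, Cat was called higher and Gpx2 was not called. Over all tested genes 26.1% were called lower. A link between matches and differences was not tested.

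Gclc and Gclm encode the catalytic and the modifier subunit of glutamate-cysteine ligase, which makes the precursor of glutathione in its rate-limiting step. Gclc stood at 83.3, 48.2 and 55.6 FPKM in the control mice, at 38.9, 27.9 and 24.9 in the TAI mice and at 28.4, 19.0 and 11.7 in the TAI/IVIg mice. All control mice lay above all irradiated mice, with wide spread within each group, and the TAI and TAI/IVIg mice overlapped. The control mean was 62.4 ± 18.5, the TAI mean 30.6 ± 7.36 and the TAI/IVIg mean 19.7 ± 8.35. Its fall of 0.99 in TAI against control (SE 0.32, limma adjusted p = 0.0408) was near the threshold. The adjusted p ran from 0.0528 to 0.116 when control mouse 1, 2 or 3 or TAI mouse 1, 2 or 3 was left out, was 0.0544 without TAI/IVIg mouse 2, and was 0.165 with the medians set equal. Gclc fell by 1.66 from control to TAI/IVIg (SE 0.32, limma adjusted p = 0.00374), a call kept under all 20 alternative settings.

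Gclm moved the other way. It stood at 12.8, 14.2 and 10.8 FPKM in the control mice, at 18.4, 14.2 and 18.9 in the TAI mice and at 19.2, 22.0 and 22.0 in the TAI/IVIg mice. The groups did not overlap, although control mouse 2 and TAI mouse 2 came out at 14.18 and 14.24. The difference of TAI from control was 0.42 (SE 0.15, limma adjusted p = 0.0584), not past the threshold, and it was 0.71 (limma adjusted p = 0.0311) with the medians set equal. Without TAI mouse 2 it was past the threshold as well, at 0.54 (limma adjusted p = 0.0381). From control to TAI/IVIg Gclm rose by 0.71 (SE 0.15, limma adjusted p = 0.0058), from 12.6 ± 1.72 to 21.1 ± 1.58.

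The 2 subunits form one enzyme, and their ratio within a mouse does not depend on how libraries are scaled. It was looked at after the values had been seen and is given without a test. Gclc over Gclm was 6.51, 3.40 and 5.17 in the control mice, 2.11, 1.96 and 1.32 in the TAI mice and 1.48, 0.864 and 0.535 in the TAI/IVIg mice. Every irradiated mouse lay below every control mouse, and the RNA of the catalytic subunit dropped below that of the modifier in TAI/IVIg mice 2 and 3. Cat over Gpx1, which encode enzymes for the same peroxide, was 0.164, 0.174 and 0.159 in control, 1.60, 1.17 and 1.35 in TAI, and 4.12, 2.14 and 3.99 in TAI/IVIg. Gpx1 RNA was the more abundant in every control mouse and Cat RNA in every irradiated mouse.

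**Figure D2:**
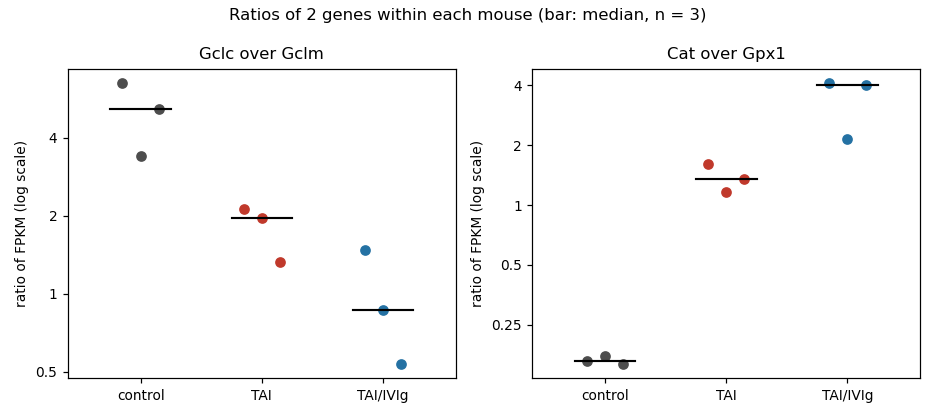
Ratio of FPKM values of 2 genes within each mouse (vertical axes, log scale), Gclc over Gclm on the left and Cat over Gpx1 on the right, by group. Points are mice and bars are medians of 3 mice. Gclc over Gclm has a median of 5.17 in control and 0.864 in TAI/IVIg mice, and Cat over Gpx1 a median of 0.164 and 3.99.

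Gpx1 and Gpx2 are selenium-containing glutathione peroxidases, Gpx1 in most cells and Gpx2 mainly in the gut epithelium. Gpx1 stood at 109, 134 and 160 FPKM in the control mice, at 46.4, 62.9 and 52.0 in the TAI mice and at 20.9, 51.1 and 26.0 in the TAI/IVIg mice. All control mice were above all irradiated mice, and TAI/IVIg mouse 2 lay among the TAI mice. The mean fell from 134 ± 25.2 to 53.8 ± 8.38 in TAI, by 1.30 on the log2 scale (SE 0.30, limma adjusted p = 0.0117), or by 1.01 with the medians set equal. Without TAI mouse 1 the adjusted p was 0.0502. TAI/IVIg, at 32.7 ± 16.2, stood at -2.09 from control (SE 0.30, limma adjusted p = 0.00119), a call kept under all 20 alternative settings.

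Gpx2 had the highest level of the 10 genes in all 3 groups. Its values were 551, 337 and 376 FPKM in the control mice, 301, 345 and 353 in the TAI mice and 195, 197 and 309 in the TAI/IVIg mice. Control and TAI mice overlapped, and the difference of -0.31 (SE 0.24, 95% interval -0.85 to 0.23, limma adjusted p = 0.336) was not past the threshold, nor under any alternative. All TAI/IVIg mice lay below all control mice. That difference, -0.85 (SE 0.24, limma adjusted p = 0.0185), was called, but the adjusted p was 0.0501 without control mouse 1 and 0.0565 or 0.0536 when TAI/IVIg mouse 1 or 2 was left out. With the medians set equal Gpx2 was at -0.02 in TAI and -0.36 in TAI/IVIg against control, neither of them called.

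Sod1 encodes the cytosolic copper and zinc superoxide dismutase. It stood at 58.8, 78.6 and 61.0 FPKM in the control mice, at 32.7, 34.8 and 43.5 in the TAI mice and at 37.9, 47.5 and 46.2 in the TAI/IVIg mice. Control mice were above all irradiated mice, and the irradiated groups overlapped. In TAI Sod1 fell by 0.82 (SE 0.17, limma adjusted p = 0.00725), from 66.1 ± 10.9 to 37.0 ± 5.71. TAI/IVIg, at 43.8 ± 5.22, was at -0.58 from control (SE 0.17, limma adjusted p = 0.0211), and this call was lost without control mouse 2 (0.0716) or without TAI/IVIg mouse 1 (0.0593). With the medians set equal the differences from control were -0.53 in TAI (limma adjusted p = 0.0604) and -0.09 in TAI/IVIg (0.75), neither past the threshold.

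Txnrd1 encodes the cytosolic thioredoxin reductase, and Srxn1 the sulfiredoxin that repairs overoxidized peroxiredoxins. Txnrd1 stood at 69.6, 66.9 and 58.7 FPKM in the control mice, at 39.2, 40.5 and 41.0 in the TAI mice and at 33.6, 45.8 and 39.0 in the TAI/IVIg mice. Srxn1 stood at 288, 238 and 211 FPKM in the control mice, at 125, 112 and 134 in the TAI mice and at 124, 136 and 152 in the TAI/IVIg mice. For both genes every control mouse lay above every irradiated mouse, and TAI and TAI/IVIg mice overlapped. Txnrd1 fell by 0.68 in TAI (SE 0.14, limma adjusted p = 0.00714) and Srxn1 fell by 0.98 (SE 0.16, limma adjusted p = 0.00264). For TAI/IVIg against control, Txnrd1 was at -0.71 (limma adjusted p = 0.00363) and Srxn1 at -0.83 (limma adjusted p = 0.00325). With the medians set equal none of these 4 differences was past the threshold. They were then -0.39 (adjusted p = 0.116) and -0.22 (0.343) for Txnrd1, and -0.69 (0.0531) and -0.34 (0.291) for Srxn1.

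Hmox1 encodes the inducible heme oxygenase and is also high in macrophages that take up red cells. It had the lowest level of the 10 genes in each group, on 45 to 106 reads per mouse. Its values were 3.25, 2.91 and 2.84 FPKM in the control mice, 3.13, 3.47 and 3.32 in the TAI mice and 2.22, 2.72 and 1.53 in the TAI/IVIg mice. Control and TAI mice overlapped, with a difference of 0.11 (SE 0.16, 95% interval -0.25 to 0.47, limma adjusted p = 0.617), and all TAI/IVIg mice lay below all others. TAI/IVIg against control gave -0.36 (limma adjusted p = 0.092), not past the threshold, and 0.13 with the medians set equal. Without TAI/IVIg mouse 2 that adjusted p was 0.0361. The 10 macrophage markers summed to 183 to 359 FPKM in control, 139 to 321 in TAI and 146, 307 and 80.4 in TAI/IVIg mice 1, 2 and 3, none of them at 0 in any mouse. The value of 307 in TAI/IVIg mouse 2 held 195 of Lyz2 alone. Lyz2 also made up 214 of the 359 in control mouse 3 and 192 of the 321 in TAI mouse 3. In control mice 1 and 2 it stood at 69.0 and 44.4. Control mouse 3 had the highest sum, most of it Lyz2, and the lowest Hmox1 of its group. The part of macrophage RNA in the level of Hmox1 was not tested.

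**Figure D3:**
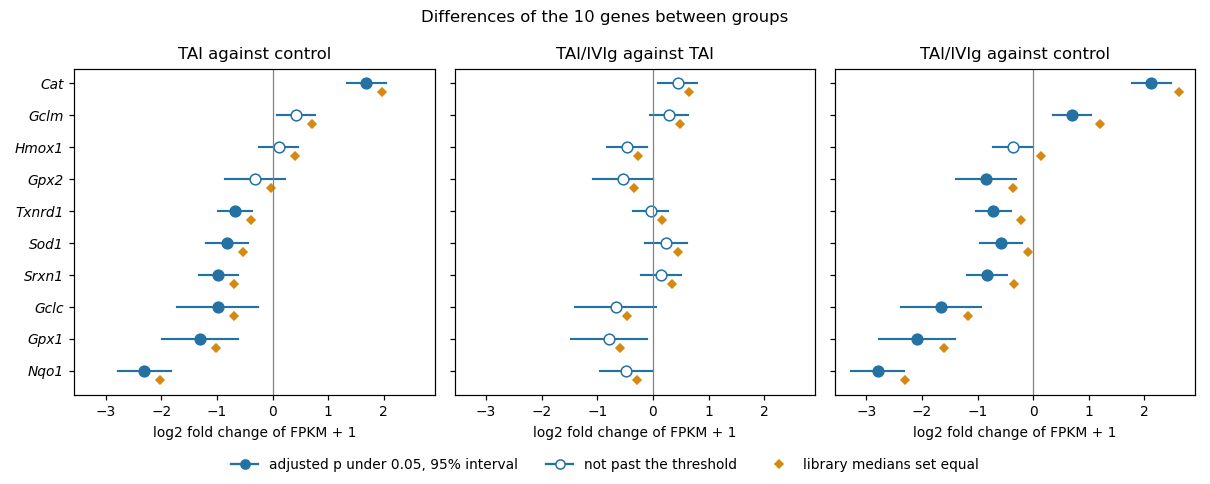
Log2 fold change of FPKM + 1 (horizontal axis) of the 10 genes in the 3 comparisons, with the 95% interval from limma. Filled circles have an adjusted p under 0.05, open circles do not, and diamonds give the value with the library medians set equal. Nqo1 and Cat keep their sides in both comparisons with control, and all circles of TAI/IVIg against TAI are open.

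Whether IVIg changed the level of these genes after TAI is the comparison of TAI/IVIg with TAI. None of the 10 genes passed the adjusted threshold by limma, with adjusted p from 0.358 to 0.917, and limma voom on the recovered reads gave 0 as well. The share over all tested genes was 0%. At an unadjusted p under 0.05, by limma, Nqo1 (-0.49, 95% interval -0.96 to -0.01), Gpx1 (-0.79, -1.48 to -0.11) and Hmox1 (-0.46, -0.82 to -0.11) were lower, which is 3 of 10 where 11.2% of all tested genes were. Cat was higher on the same measure (0.45, 0.10 to 0.80), 1 of 10 where 1.64% were. These shares over all tested genes depend on the scaling. They stand for 1466 lower and 214 higher of 13056 genes in the main fit. With the library medians set equal, 580 were lower and 1005 higher at an unadjusted p under 0.05. Mice did not overlap for Hmox1 on the lower side, 1 of 10 against 16.1% of all tested genes, nor for Cat and Gclm on the higher side, 2 of 10 against 3.09%.

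For the remaining genes the differences of TAI/IVIg from TAI and their 95% intervals were -0.67 (-1.39 to 0.06) for Gclc, 0.29 (-0.05 to 0.63) for Gclm and -0.54 (-1.08 to 0.00) for Gpx2. Txnrd1 was at -0.04 (-0.35 to 0.28), Srxn1 at 0.15 (-0.20 to 0.50) and Sod1 at 0.24 (-0.14 to 0.62). The intervals of the last 3 exclude a change by 1 log2 unit in either direction, and those of Gclc and Gpx2 do not exclude a fall of that size. Nqo1 and Gpx1 were each highest in TAI/IVIg mouse 2 of their group. That mouse also had the highest sum of the 7 Paneth cell markers (1395 FPKM against 325 and 143) and of the 8 proliferation markers (27.2 against 16.6 and 17.5). Its goblet, macrophage, lymphocyte, endothelial, neutrophil and erythroid sums were the highest of the group too. Its villus enterocyte, crypt stem, smooth muscle, fibroblast and acinar pancreas sums were not. TAI mouse 2 was the highest of its group for the Paneth and proliferation sums and for both genes. In control mice the Paneth and proliferation sums were highest in mouse 2, Nqo1 in mouse 1 and Gpx1 in mouse 3. Markers of some cell types were lower in TAI/IVIg than in TAI at an unadjusted limma p under 0.05, where 11.2% of all tested genes were. These were 7 of 7 for Paneth cells, 6 of 6 for goblet cells, 6 of 6 for fibroblasts and 7 of 8 for smooth muscle. Endothelial markers had 2 of 5 and neutrophil markers 1 of 3. The villus enterocyte, crypt stem, proliferation, macrophage, lymphocyte, erythroid and acinar pancreas markers had 0. No marker of any list was called at an adjusted p under 0.05. The goblet cell markers summed to 3437 to 4351 FPKM in TAI and 1963 to 3362 in TAI/IVIg mice, and the Paneth cell markers to 1866 to 5155 in TAI. The part of these cells in the differences of the 10 genes was not tested.

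Against control, TAI/IVIg mice had 7 of the 10 genes called lower, where 37.4% of all tested genes were, and 2 called higher, where 9.06% were. With the library medians set equal the counts were 3 lower (Nqo1, Gclc and Gpx1), where 14.5% of all tested genes were, and 2 higher (Cat and Gclm), where 22.1% were. This comparison and that of TAI share their control mice. Nqo1 stood at -2.31 in TAI and -2.79 in TAI/IVIg, Gpx1 at -1.30 and -2.09, Gclc at -0.99 and -1.66, and Cat at 1.68 and 2.13. Srxn1 stood at -0.98 and -0.83, Txnrd1 at -0.68 and -0.71, and Sod1 at -0.82 and -0.58. The 10 genes together summed to 972 to 1223 FPKM in control, 684 to 745 in TAI and 550 to 713 in TAI/IVIg mice.

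The order of the levels shifted as well. In control mice it ran from Gpx2 (mean 421 FPKM) over Srxn1 (246), Gpx1 (134), Sod1 (66.1), Txnrd1 (65.1), Gclc (62.4), Nqo1 (29.0), Cat (22.2) and Gclm (12.6) to Hmox1 (3.00). Mice overlapped only between the neighbours Sod1, Txnrd1 and Gclc. In TAI mice Cat stood in place 3, behind Gpx2 and Srxn1, and Nqo1 in place 9, with overlap between Txnrd1, Sod1 and Gclc. In TAI/IVIg mice Cat was again in place 3 and Nqo1 in place 9, and the neighbours from Sod1 over Txnrd1, Gpx1 and Gclm to Gclc overlapped in turn, as did Nqo1 and Hmox1.

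For the 3 genes with the widest range of group means, the tested genes with the most similar course over the 9 mice were taken, by the root mean square difference of log2(FPKM + 1) after centring each gene. For Nqo1 they were Tcf23 (difference 0.12), Pdia6 (0.20) and Pdia4 (0.21), the last 2 being protein disulfide isomerases of the endoplasmic reticulum. Tcf23 fell from a mean of 7.19 FPKM in control to 0.56 in TAI and 0.28 in TAI/IVIg. At such low levels the added 1 shrinks log2 differences, and its fall as a ratio of FPKM was larger than that of Nqo1. For Cat they were Plbd1 (0.20), Creb3l2 (0.20) and Gm14597 (0.20), with Plbd1 at 12.3, 51.7 and 63.6 FPKM. The same limit holds for Gm14597, at 0.44, 2.82 and 3.99 FPKM. For Gpx1 they were the ribosomal protein genes Rplp0 (0.14) and Rpl27a (0.15) and the gene Gm6793 (0.14), with Rplp0 at 565, 217 and 120 FPKM. These are likenesses over 9 mice in 3 groups, and nothing about control of the genes follows from them.

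Around the 10 genes, 8 lists of the pathway were set up, with 116 genes in all and 105 tested. In TAI against control, 43 of the 105 were called lower and 8 higher, where 26.1% and 8.81% of all tested genes were. With the medians set equal 25 were lower and 10 higher, where 14.0% and 16.5% of all tested genes were. In the main fit the 105 genes had a median difference of -0.41, against -0.23 over all tested genes. In TAI/IVIg against TAI limma called 0 of the 105, with 14 lower and 4 higher at an unadjusted p under 0.05 (11.2% and 1.64% of all tested genes), and limma voom called 0 too. TAI/IVIg against control gave 44 lower and 9 higher, where 37.4% and 9.06% of all tested genes were.

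The regulators of NRF2 did not share a direction. Nfe2l2 itself had a mean of 53.7 ± 18.4 FPKM in the control group, 31.4 ± 5.67 in the TAI group and 37.4 ± 10.2 in the TAI/IVIg group, a difference of -0.72 in TAI that was not past the threshold (limma adjusted p = 0.07). Its inhibitor Keap1 fell by 0.60 in TAI (limma adjusted p = 0.0243), but was at -0.32 and not called with the medians set equal. Bach1, a repressor that competes for the same elements, was at 0.27 (limma adjusted p = 0.233). Of 12 tested regulators 4 were called lower (Rbx1 at -0.91, Mafg at -0.75, Nfe2l1 at -0.64 and Keap1) and 2 higher, the small MAF gene Mafk at 0.89 and the kinase Gsk3b at 0.44. Over all tested genes 26.1% were called lower and 8.81% higher. With the medians set equal Mafg (-0.46, adjusted p = 0.0571) and Nfe2l1 (-0.35, adjusted p = 0.0535) were not called either, while Rbx1, Mafk and Gsk3b were.

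Among 32 other tested NRF2 targets, 20 were called lower after TAI and 1 higher, where 26.1% and 8.81% of all tested genes were. Their median difference was -0.77. The largest falls were in the aldo-keto reductase Akr1c13, from 162 ± 35.8 to 15.9 ± 5.10 FPKM (-3.29, limma adjusted p = 0.000362), the peroxiredoxin Prdx6 (-2.04), the glutathione reductase Gsr, from 238 ± 21.5 to 61.4 ± 1.55 FPKM (-1.93), and Entpd5 (-1.75). These 4 were also called with the medians set equal. The 1 that rose was Akr1b7, by 1.52. Thioredoxin, Txn1, fell by 0.91 to 503 ± 67.6 FPKM, and by 0.63 with the medians set equal (adjusted p = 0.0564). The cystine transporter Slc7a11 was under 1 FPKM on average in all groups and differed by -0.15 (limma adjusted p = 0.793).

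**Figure D4:**
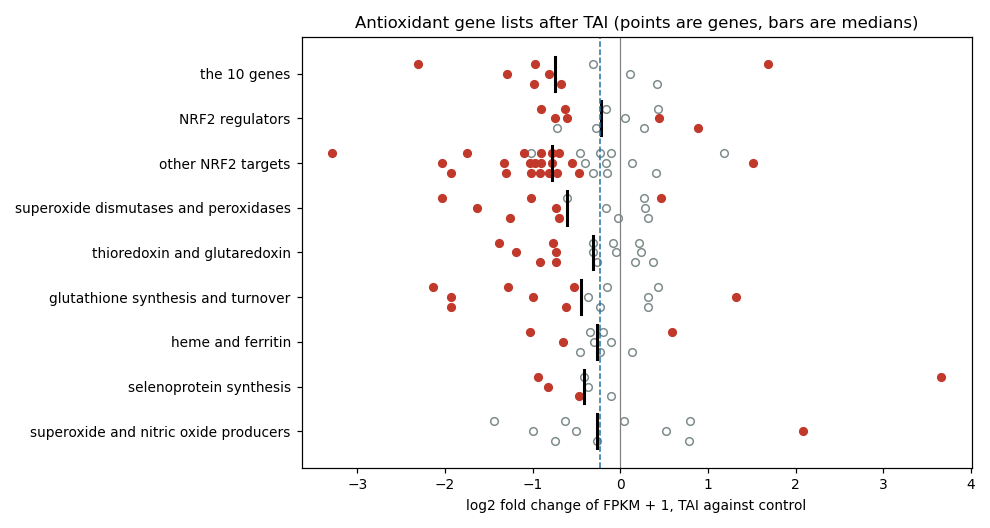
Log2 fold change of FPKM + 1 in TAI against control (horizontal axis) for the 10 genes and the 8 lists. Points are tested genes, filled where the adjusted p is under 0.05, black bars are list medians, and the dashed line is the median of all tested genes at -0.23. The medians run from -0.77 in the other NRF2 targets to -0.23 in the regulators, and Selenop lies furthest right at 3.66.

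The enzyme lists divided between falls and a few rises after TAI. Over all tested genes 26.1% were called lower and 8.81% higher. Of 13 other superoxide dismutases and peroxidases, 6 were called lower, with Prdx3 at -1.64, Prdx4 at -1.26 and Ccs, the copper chaperone of Sod1, at -1.02, and Prdx5 rose by 0.46. Sod2 (-0.17), Sod3 (0.27) and Gpx4 (0.32) were not called. Of 15 thioredoxin and glutaredoxin genes 6 were lower and 0 higher, led by Glrx5 (-1.39) and the mitochondrial Txn2 (-1.19), with Glrx at -0.76, which was at -0.48 and not called with the medians set equal (adjusted p = 0.158). At an unadjusted p under 0.05 that list had 7 lower and 0 higher, where 4475 and 1556 of the 13056 tested genes were.

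Of 14 genes of glutathione synthesis and turnover, 7 were called lower and 1 higher, where 26.1% and 8.81% of all tested genes were. Among the 7 were the glutathione-cleaving Chac1 (-2.14), Cth, which makes cysteine (-1.93), the glutamate and cysteine transporter gene Slc1a1 (-1.28) and the glutathione synthase Gss (-0.99). Oplah, the 5-oxoprolinase that returns glutamate from the same cycle, rose by 1.32. Of 10 heme and ferritin genes the biliverdin reductases Blvrb (-1.04) and Blvra (-0.66) were lower and the exporter Abcg2 was higher (0.59), 2 and 1 of 10 where 26.1% and 8.81% of all tested genes were. Of 7 genes of selenoprotein synthesis and transport 3 were called lower and 1 higher, beside the same 26.1% and 8.81% of all tested genes. The 3 were Sephs2 (-0.94), Eefsec (-0.83) and Scly (-0.47). With the medians set equal Sephs2 (-0.65, limma adjusted p = 0.123) and Scly (-0.18, limma adjusted p = 0.312) were not called. The selenium carrier Selenop rose from 166 ± 41.3 to 2077 ± 172 FPKM (3.66, limma adjusted p = 9.2e-05) and stood at 2565 ± 433 in TAI/IVIg. Of 11 genes of enzymes that make superoxide, peroxide or nitric oxide, or of their partners, 0 were called lower (1 at an unadjusted p under 0.05) and 1 higher. The 1 was Duoxa2, a partner of the peroxide-making Duox2, which rose by 2.09. In TAI/IVIg Duoxa2 stood at 46.0 ± 43.8 FPKM and was not called against control (limma adjusted p = 0.372).

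Other markers show what the tissue labelled as jejunal epithelium held. In TAI against control 26.1% of all tested genes were called lower and 8.81% higher. The 8 proliferation markers were all called lower. Their summed level was 52.1 to 122 FPKM in control, 21.2 to 27.9 in TAI and 16.6 to 27.2 in TAI/IVIg. Of crypt stem cell markers 1 of 4 was higher and 1 lower, of goblet cell markers 3 of 6 higher and 1 lower, and of neutrophil markers 1 of 3 higher. Both tested erythroid markers and 1 of 9 macrophage markers were lower. At an adjusted p under 0.05, limma called none of the Paneth, smooth muscle, fibroblast, lymphocyte, endothelial and acinar pancreas markers (at an unadjusted p under 0.05, 1 lymphocyte marker was lower and 1 endothelial marker higher). Lymphocyte markers spread widely within groups, so the lack of a call does not show equal levels. Their sums were 67.6, 42.0 and 311 FPKM in control mice 1, 2 and 3. They were 39.5 to 82.1 in TAI and 45.2 to 91.5 in TAI/IVIg mice. Among them Cd79a stood at 18.5, 1.48 and 142 FPKM in control mice 1, 2 and 3. It stood at 1.20, 1.31 and 29.9 in the TAI mice and at 0.801, 31.4 and 0.982 in the TAI/IVIg mice. The 8 smooth muscle markers, such as Des and Myh11, were present in every mouse, with sums of 649 to 802 FPKM in control, 746 to 1111 in TAI and 818, 436 and 164 in TAI/IVIg mice 1, 2 and 3. Fibroblast markers summed to 65.8 to 92.1, 73.7 to 94.2 and 21.1 to 47.9 FPKM in the 3 groups. The part of these cells in the levels of the 10 genes was not tested.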

How the data were processed

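Libraries of mRNA from 9 mice were analysed. The deposited table holds FPKM computed by the authors, with each mouse in its own column and none pooled (0 columns were left out). The submitters' processing notes name FastQC, Trimmomatic, STAR, featureCounts, DESeq2, mm10 and GRCm38, with no versions, and the strand setting is not given in the sources used here. Values were whole multiples of a read for 100% of the genes, within 0.001 read, and the lengths behind them equalled the summed exons of GENCODE M21 for 96.6% of the genes. Depth came from these reads, and a gene of few reads is known with less precision.

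Members were matched by symbol and Ensembl identifier. The members, the 8 pathway lists and the 13 marker lists were chosen with earlier results of these data known. Values of log2(FPKM + 1) went into limma 3.58.1 (R 4.3.3) with the group as the only term and trended empirical Bayes, and p-values were adjusted within each comparison by the Benjamini-Hochberg method. The main fit was tested on simulated reads in which as many genes rose as fell. That simulation held no shift of the library medians, so it could not test the choice of scaling. Other settings changed the scaling (library medians set equal, or quantile normalization), the pseudocount (0.1), the filter (none, or a mean of 5 FPKM or more), the trend (none) or the mice (only the 6 compared, or each left out in turn). Further settings were a replicate block and limma voom, run on recovered reads with library sizes from totals or median ratios. The block with only the 6 mice compared was added after seeing the data.

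The labels give each group replicate numbers 1 to 3. For numbers 1, 2 and 3 the control and the TAI mouse deviated together from their group means, with correlations of 0.271, 0.241 and 0.308 over genes. Mice of unlike number ran from -0.336 to 0.146. Deviations from a mean of 3 mice are not independent of each other, so these values cannot settle whether the numbers mark pairs. The main fit used no pairing, and the replicate block was an alternative setting. The sources do not say what a number marks. All libraries carry the same batch label, so no split by batch was made, and p-values measure the spread between the mice of a group. Named genes were the 10 members, 10 regulators and enzymes (such as Nfe2l2, Sod2 and Gss) whatever their values, up to 4 genes per list called higher and 4 called lower with the largest change in TAI against control, and 3 genes most alike to each of the 3 members of widest range. Promoter windows and their coordinates are from RefSeq, GRCm38.p6.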

Additional observations from a re-analysis of the deposited data

How the results depend on the processing

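Each of the 10 genes was refitted under 20 alternative settings (19 for Hmox1, which a mean FPKM of at least 5 removes). In TAI against control 177 of 199 refits kept direction and side of the threshold, 17 lost the call, 5 gained one and 0 reversed. For TAI/IVIg and TAI it was 196 of 199, and Txnrd1 changed sign, to 0.17 with library medians set equal, 0.14 with voom on median-ratio sizes and 0.070 without TAI/IVIg mouse 1 (-0.15 to 0.070 over the mice left out). Between TAI/IVIg and control it was 181, while 15 lost the call and 1 gained one, and Hmox1 changed sign, to 0.13 with medians equal and 0.13 with quantile normalization. Scaling moved the counts most. In TAI against control (6 lower and 1 higher) medians equal gave 2 lower and 2 higher, voom with median-ratio sizes 3 and 2, and quantile normalization and a mean FPKM of at least 5 gave 2 higher. Leaving out a mouse gave 4 to 6 lower and 1 to 2 higher, with 4 lower without TAI mouse 1 and 2 higher without TAI mouse 2. The calls over all 13056 tested genes moved too, from 3411 lower and 1150 higher in the main fit. They were 1823 and 2159 with medians equal, 1913 and 1976 with voom on median-ratio sizes, and 1643 and 707 without TAI mouse 1. In TAI/IVIg against control (7 lower and 2 higher) medians equal and voom with median-ratio sizes each gave 3 lower, and leaving out a mouse gave 5 to 7. Over all tested genes, lower calls there went from 4880 in the main fit to 1894 with medians equal and 2379 with voom on median-ratio sizes. Every setting called 0 of the 10 in TAI/IVIg against TAI. For the 8 lists in TAI against control (43 lower and 8 higher), medians equal gave 25 lower, voom with median-ratio sizes 27, and no filter 5 higher. Leaving out a mouse gave 27 to 46 lower and 4 to 9 higher, with 27 and 4 without TAI mouse 1, 4 higher without control mouse 2 and 5 higher without TAI mouse 2. For the lists in TAI/IVIg against control (44 lower and 9 higher), medians equal gave 24 lower and 14 higher, voom with median-ratio sizes 28 and 14, and the block with only the 6 mice compared 29 lower. The cause of these shifts was not tested.

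With a replicate block over all 9 mice, 6 of the 10 genes were called lower and 1 higher in TAI against control, and the block changed no call of them there. TAI/IVIg mice of the same number correlated at 0.201, 0.041 and -0.067 with TAI mice and at 0.185, -0.136 and -0.296 with control mice. A shared number thus did not go with a shared deviation throughout that group. With the block and only the 6 mice compared, TAI/IVIg against control had 6 lower, without Gpx2, and 2 higher. Hmox1 rests on 45 to 106 reads per mouse, which limits what can be seen of it.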
